A study of Drosophila melanogaster with 59 samples.

Results

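The single-nucleotide polymorphisms described here set the White* line of Drosophila melanogaster apart from its sister lines and lie outside exons and promoters. They were chosen from the authors' list of White*-specific SNPs by location alone: every position whose annotation names only introns, only intergenic DNA, or both. Of 2379 White*-specific SNPs, 1318 met this rule, with 689 in introns and 629 in intergenic DNA. Another 1030 carried a coding, UTR, promoter or splice-site entry, and 31 carried no location entry and were not counted as members. The same rule applied to the Red*-specific list gave 96 of 168 SNPs.

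The study followed fly lines that differ in eye color and share a transgene. All of them are w[1118] flies, a mutant of the white eye pigment transporter gene. Fab2L carries the Fab2L transgenic insertion, and White* and Red* are Fab2L lines named for their eye color. Genomic DNA came from 4-day-old adult females, 150 flies per extract, so that each library is a pool of many chromosomes. Fab2L, White* and Red* were each sequenced in 3 backgrounds, labelled Oregon-R (OR), Oregon-R after 11 further generations (OR+11) and Canton-S (CS), with 3 libraries per line and background and 27 in all. A temperature of 21 C is labelled for the OR genomic libraries, and none for those of OR+11 and CS. Long RNA came from heads of 4-day-old males and from unfertilized eggs of w[1118], Fab2L, White* and Red* in the Oregon-R strain, with 2 libraries per line and tissue. For eggs the titles were followed, although their extraction protocol mentions male heads as well. The labels do not state whether the libraries of a line are separate cultures. A p-value of an RNA comparison reflects library-to-library spread alone, which may be of technical origin.

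A SNP is a position where a single base differs from the reference sequence. Changes within the purines or within the pyrimidines are transitions, and changes between the classes are transversions. Transitions are usually the commoner kind in animal genomes, and in coding DNA most synonymous changes are transitions because the genetic code tolerates them at the last codon position. SNPs close together on 1 chromosome are inherited together as a haplotype until recombination separates them. In a pool of flies a heterozygous call means that reads of both alleles were seen, whatever the genotypes of single flies, and a homozygous call means that the reads carried the alternative base. In each list row the genotype columns are headed by background only and name no line or library.

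Almost all of the SNPs lay on 1 arm. Of the 1318, 1317 were on 3R and 1 was on 3L, whereas the 96 Red*-specific intron and intergenic SNPs lay mainly on 3L, with 81 there, 14 on 3R and 1 on 2L. On 3R they filled a distal stretch, 3R:25454403-30757811 in build dm6, that held 1314 of them (99.7%). This stretch was delimited after the positions were seen, as the longest chain of SNPs with no gap above 750 kb. It spans 5303 kb, or 16.5% of the arm as measured to the end of its last annotated gene, and 760 RefSeq genes overlap it. The mean density inside was 0.248 SNPs per kb, 1 per 4036 bp. By 1-Mb bins the members numbered 206, 382, 230, 223, 200 and 73 from 25 to 31 Mb, so that the bin from 26 Mb held the most and the bin from 30 Mb the fewest of the 6. The proximal end was A25454403G in an intron of Fur1, which encodes a furin-type protease, and the distal end was the intergenic change A30757811G. Each such token gives the reference base, the dm6 position and the alternative base.

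The 4 members outside the stretch were all intronic. A10174019G, the only member off 3R, lay in dpr10 on 3L, a gene of a neuronal immunoglobulin-domain family, and had a quality score of 6.17 against a median of 82.0 over all members. C18461552T lay in fruitless (fru), the sex-determination gene of courtship behavior, and G18827337A lay in CG18208. A31647777G lay in kek6, which encodes a leucine-rich-repeat transmembrane protein, distal to the stretch. The dpr10 position was called homozygous in all 3 backgrounds and the fru position heterozygous in all 3. The CG18208 and kek6 positions were heterozygous in OR and OR+11 and homozygous in CS.

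**Figure D1:**
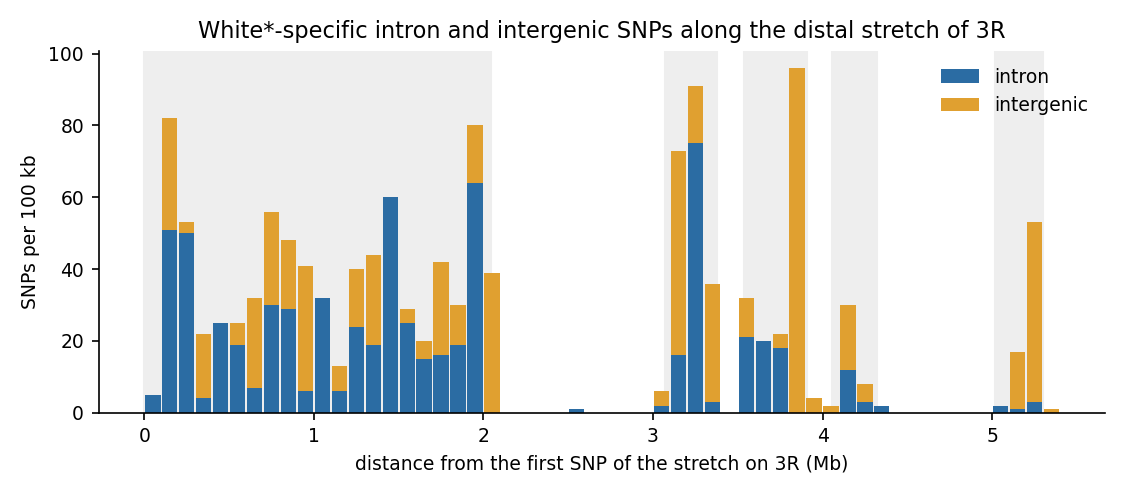
Number of White*-specific intron (blue) and intergenic (orange) SNPs per 100 kb along the stretch of 3R, by distance in Mb from its first SNP. Grey bands are the segments separated by more than 100 kb without a member, and 15 of 54 bins hold none while the fullest holds 96.

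Inside the stretch the SNPs fell into segments, which were taken to end at any gap above 100 kb, a size also set after the positions were seen. The first segment, 3R:25454403-27501174, held 818 members at 0.400 per kb. A lone SNP followed at 28038871. The next 2 were the densest, with 206 members at 3R:28525592-28830436 (0.676 per kb) and 174 at 3R:28990237-29359855 (0.471 per kb). The fifth, 3R:29510139-29778103, held 42 members at 0.157 per kb, the lowest density of the segments with more than 1 SNP. The sixth, 3R:30474679-30757811, held 73 at 0.258 per kb.

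The gaps were not gaps in genes. The widest, of 697 kb between the fifth and sixth segments, contains 138 RefSeq genes and held 5 White*-specific SNPs of other location classes. The gap of 538 kb after the first segment contains 72 genes and held 7 other SNPs, and the gap of 487 kb that follows the lone SNP contains 28 genes and held 0. The remaining 2 gaps, of 160 and 150 kb, held 1 and 0. The scarcity there thus extended to the whole White*-specific list and was not limited to noncoding positions.

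Neighbouring SNPs were close together. The median distance between neighbours in the stretch was 509 bp (interquartile range 138 to 2146 bp) against a mean of 4039 bp, and 61.1% of neighbours lay within 1000 bp. Joining SNPs within 1000 bp of each other gave 516 runs over the 1318 members, of which 237 were single SNPs. There were 75 runs of at least 5, holding 555 members (42.1%), and 39 of these were wholly intergenic and 36 wholly intronic. The longest run had 25 intergenic SNPs in 6164 bp at 3R:25629282-25635445, between Ssadh, the succinate semialdehyde dehydrogenase gene, and jigr1. The next had 16 intergenic SNPs in 3270 bp at 3R:28564708-28567977, 13.0 kb from fkh, which encodes the forkhead transcription factor. A further run of 13 in 1581 bp lay 5969 bp from fkh, at 8.22 SNPs per kb. Together the interval between mIF2 and fkh, 36.2 kb long, held 48 intergenic members, the most of any interval between annotated genes.

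The next length, 15 SNPs, was shared by 2 runs. The intergenic one, at 3R:26155686-26158584, had 5 SNPs homozygous in OR, 4 in OR+11 and 0 in CS. The other, 4197 bp long and the more proximal, lay in an intron of Lgr3, the receptor of the growth-coordinating relaxin-like hormone Dilp8, and its base changes are given in full because they show the mix of calls within 1 run. The 7 changes homozygous in both OR and OR+11 were C25667650G, A25667676C, A25667915C, G25667998T, C25668031A, C25668400T and A25668866T. The 5 homozygous in OR and heterozygous in OR+11 were C25666377A, T25668753G, A25668983G, C25669843G and A25670226C. The 3 with the opposite pattern were G25666655T, G25667860C and T25670573C. All 15 were called heterozygous in CS, and 3 of the 15 were transitions. Homozygous and heterozygous calls thus alternated along the run, within distances shorter than a gene.

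Only 4 pairs of neighbours lay within 10 bp. The pair C25953385T and A25953395G in CCAP-R was heterozygous in every background. The other 3 pairs lay in the fifth segment and were homozygous in every background: T29621630C with C29621639A and T29624572C with A29624582T in intergenic DNA, and T29638362C with A29638369G in the dopamine receptor gene Dop1R2.

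The intergenic SNPs were spread over 74 intervals between RefSeq gene spans, which held 628 of the 629; the remaining 1 lay inside a RefSeq span. The 10 fullest intervals held 281 (44.7%). After the interval next to fkh came the one between CG6142 and CG31323 with 40 members in 33.7 kb, then that between Cnx99A, the calnexin gene, and the noncoding RNA gene CR45547 with 39 in 36.5 kb. In these 3 intervals the density was 1.33, 1.19 and 1.07 members per kb. Over the whole stretch and all location classes, White*-specific SNPs had a density of 0.560 per kb between RefSeq gene spans and 0.398 per kb inside them.

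The intronic SNPs lay in 91 genes, of which 85 are protein coding. All 694 pairs of SNP and named gene fell inside the RefSeq span of that gene, after 20 older names were matched through synonyms and position. Members per host ranged from 1, in 35 genes, to 53, and the median was 2. The 10 fullest hosts held 303 SNPs, 44.0% of the intronic members. Of the 91 hosts, 30 were also named by a nonsynonymous White*-specific SNP. The RNA comparisons below do not separate such SNPs from the intronic ones.

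The fullest host was sidestep (side), which encodes an immunoglobulin-superfamily guidance protein of motor axons, with 53 intronic SNPs across its 62.4-kb span. beat-VII, of the Beaten path family that includes Sidestep receptors, had 21. plum, an immunoglobulin-superfamily gene of axon pruning, had 24, and CCAP-R, the receptor of crustacean cardioactive peptide, had 21. musashi (msi), which encodes an RNA-binding protein of asymmetric division and neural precursors, had 51. htt, the fly huntingtin gene, and snu, the ABC transporter gene of cuticle barrier formation listed as CG9990, had 29 each. CG46339, listed as sda, had 27, the gastrulation gene T48 had 25 and the lipophorin receptor gene LpR2 had 23. Per kb of gene span the order was different: side had 0.849, snu 1.39 and plum 0.368, and AstA-R2, a receptor of the neuropeptide allatostatin A with 17 SNPs in 7.67 kb, had 2.22.

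Genes of chromatin and eye color pathways were looked up among the hosts. The 91 hosts are 0.509% of 17872 RefSeq genes, and nothing is read from a count of 0 in lists of this size. No intron SNP lay in any of 20 matched Polycomb group genes, 23 trithorax group genes, 13 genes of factors that bind Polycomb response elements, 15 insulator genes, 8 Hox genes, 25 eye pigment genes or 12 retinal determination genes. Most of these lie elsewhere in the genome: all 8 Hox genes are on 3R, and 0 of them lie in the stretch. Just 3 listed genes lie inside it. They are Sce, which encodes the RING-type ubiquitin ligase of Polycomb repressive complex, at 179 kb from the nearest member, ZIPIC, an insulator protein gene, at 257 kb, and claret (ca), an eye color gene of pigment granule formation, at 28.7 kb. All 3 fall in gaps between segments, and no White*-specific SNP of any class names them.

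The 12 possible base changes were all present. Merging strands, C-to-T changes made up 28.5% of the members, A-to-G 24.4%, C-to-A 14.2%, A-to-T 13.5%, C-to-G 10.1% and A-to-C 9.41%. Transitions numbered 696 of 1318, or 52.8% (95% exact binomial interval 50.1 to 55.5%), a ratio of 1.12 transitions per transversion. Introns and intergenic DNA gave nearly the same share, 53.0% of 689 and 52.6% of 629. Such intervals and the Fisher p-values that follow cover counting error only, since SNPs of 1 haplotype share their history and are not independent.

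The other located SNPs had 56.7% transitions, and the difference from the members did not pass the threshold (two-sided Fisher's exact test, p = 0.0604, odds ratio 0.855). Within those others the share depended on location. SNPs with a promoter entry and no coding or UTR entry had 50.8% (46.1 to 55.4%), whereas coding SNPs had 66.0%, above the members (two-sided Fisher's exact test, p = 5.31e-06). Synonymous SNPs had 70.9% and nonsynonymous ones 54.3% (44.3 to 64.0%), so that nonsynonymous and noncoding changes had overlapping intervals. The 96 Red*-specific intron and intergenic SNPs had 52.1% (41.6 to 62.4%).

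**Figure D2:**
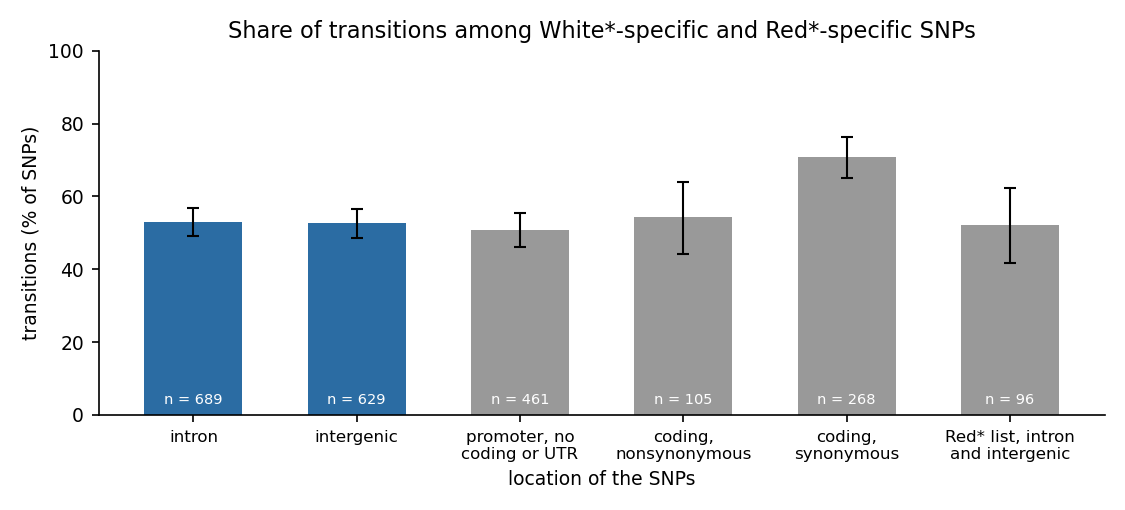
Share of transitions among White*-specific SNPs by location and among Red*-specific intron and intergenic SNPs, in percent with exact 95% binomial intervals. The intron and intergenic bars, in blue, stand at 53.0% and 52.6%, and the synonymous bar is the tallest at 70.9%.

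Most positions were called heterozygous. Of the 1318 members, 999 (75.8%) were heterozygous in all 3 backgrounds, 37 were homozygous in all 3, and 282 (21.4%) had calls that differed between backgrounds. No call was homozygous for the reference base, so every member carried the alternative base in OR, OR+11 and CS. The other located SNPs and the Red*-specific intron and intergenic SNPs had no such call either. Whether this follows from how the lists were made was not tested. Homozygous calls numbered 223 in OR (16.9%), 205 in OR+11 (15.6%) and 72 in CS (5.46%). The commonest differing pattern, in 99 SNPs, was homozygous in OR and OR+11 and heterozygous in CS. A further 86 were homozygous in OR alone, 62 in OR+11 alone and 27 in CS alone. The other located SNPs had similar shares, at 17.9%, 14.5% and 3.69%. Read depth per call was not analysed here, and its part in these calls was not tested. Median quality was 70.0 for positions homozygous in OR and 83.0 for those heterozygous there. In OR+11 the medians were 80.0 and 82.0, and in CS the order was the other way, at 88.5 and 81.0.

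Homozygous calls were grouped along the arm and were not scattered over it. In OR, the neighbour of a homozygous SNP within 1000 bp was homozygous in 78.2% of 133 pairs, against 4.78% of 669 pairs after a heterozygous SNP. The corresponding shares were 63.0% and 6.96% in OR+11, and 51.6% of 31 and 1.56% of 771 in CS. For neighbours farther apart than 1000 bp they were 51.7% and 9.24% in OR and 54.5% and 7.83% in OR+11. In CS they were 63.2% of 38 and 3.59% of 473, so the grouping was not confined to close neighbours. At the proximal end, from 25.5 to 25.75 Mb, 103 of 136 members were homozygous in OR and 90 in OR+11, against 0 in CS. In the next 250 kb the counts were 25, 15 and 1 of 69, and in the 250 kb after that 28, 24 and 4 of 94. From 27.25 to 27.5 Mb, 0, 0 and 1 of 148 were homozygous. The Oregon-R backgrounds thus carried a high share of homozygous calls at the proximal end, which Canton-S did not, and the share was near 0 by the end of the first segment.

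Within the stretch, the first differing SNPs in chromosome order show this edge. A25454403G in Fur1 was homozygous in OR and OR+11 and heterozygous in CS. In msi the same pattern held for C25553940A, T25553987C, T25554079A and C25558809T, while T25554048C, A25556417G, G25556555A and C25558744T were homozygous in OR only. Over the 51 intronic SNPs of msi, 45 were homozygous in OR, 33 in OR+11 and 0 in CS. LpR2, in the same part of the arm, had 14, 15 and 0 of 23, whereas side, at the distal end of the first segment, had 0 of 53 in every background.

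**Figure D3:**
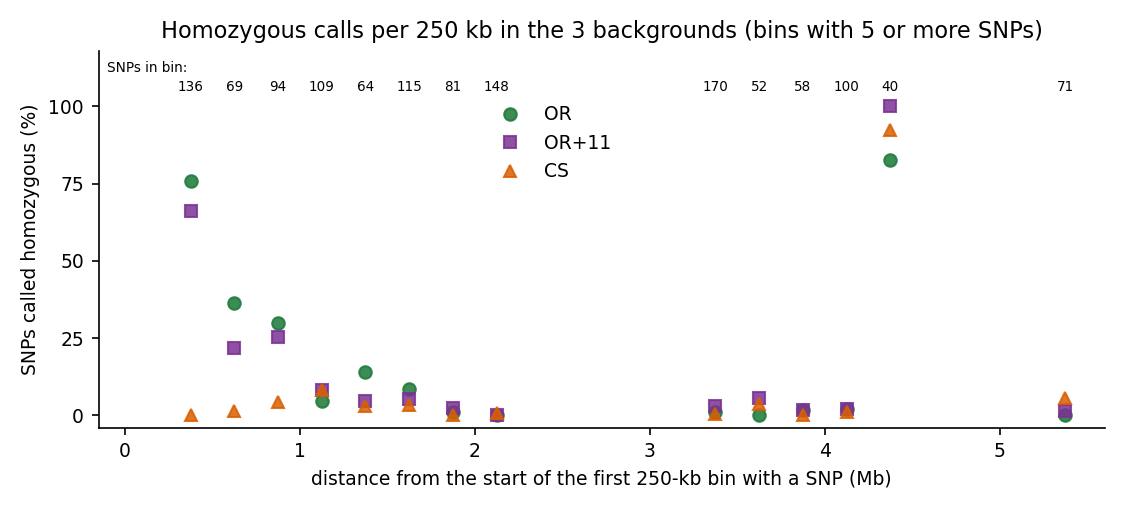
Share of members called homozygous per 250 kb in OR (circles), OR+11 (squares) and CS (triangles), by distance in Mb from the first occupied bin. The numbers above give SNPs per bin, and only bins with at least 5 are drawn: the first drawn bin reads 75.7% in OR and 0 in CS, and the bin inside the fifth segment reads 82.5%, 100% and 92.5%.

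The fifth segment stood apart from its neighbours. Of its 42 members, 35 (83.3%) were homozygous in OR, 42 (100%) in OR+11 and 39 (92.9%) in CS, and 33 were homozygous in all 3. These 33 are most of the 37 such SNPs in the whole list of members. In the fourth segment, 150 kb away, 3, 3 and 2 of 174 were homozygous, and in the sixth 0, 1 and 5 of 73. Quality scores in the segment ran from 52.0 to 126 with a median of 89.0. Its intron hosts were alph, a protein phosphatase gene with 6 members, Dop1R2 with 4, CG7567, the odorant-binding protein gene Obp99c and kay, which encodes the fly Fos protein, with 2 each, and dmrt99B, of the doublesex-related family, with 1.

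RNA of the host genes was compared next, with the same White*, Fab2L and Red* lines in Oregon-R. Effective depth worked back from the steps of the FPKM values was 13.3 to 38.2 M reads per head library and 28.1 to 35.2 M per egg library. White* and Fab2L were close to each other in both tissues, while in heads Red* (26.0 to 38.2 M) was deeper than White* (14.4 to 16.5 M), so that for heads of White* against Red* a difference of line and one of depth cannot be told apart. The tissue labels held: 5 head markers summed to at least 13022 FPKM in heads and at most 9.54 in eggs. Of 5 egg markers 4 were found, at 595 to 685 FPKM in eggs and at most 2.26 in heads. Levels are FPKM, differences are on the log2(FPKM + 1) scale, which understates changes of low genes, and each adjusted p comes from limma over all genes of a tissue with Benjamini-Hochberg adjustment.

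In unfertilized eggs, 10 of the 37 host genes tested differed between White* and Fab2L at an adjusted p under 0.05, against 15.4% of all 6682 genes. Of the 10, 3 were higher in White* and 7 lower, which is 27.0% of the hosts. The median difference over the 37 was -0.05 and over all genes 0.01, and the median size of the difference was 0.12 and 0.11. The count rests on both replicates of each line: it fell when any White* or Fab2L library was left out. The count over all genes fell in each of these settings too, and both counts were lowest without the second White* library.

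The host with the largest difference was CG5455. Its egg levels were 1.43 and 1.58 FPKM in White*, against 12.3 and 11.8 in Fab2L, 10.7 and 9.76 in Red* and 9.39 and 8.94 in w[1118]. Both White* libraries were below all 6 others, with no overlap. White* averaged 1.51 ± 0.10 (SD, n = 2) and Fab2L 12.02 ± 0.35, a log2 difference of -2.38 (SE 0.06, limma adjusted p = 8.61e-07). Against Red* the difference was -2.16 (adjusted p = 4.22e-06), a comparison that shares the White* libraries. In heads CG5455 stood at 63.4 and 69.8 FPKM in White* and 54.3 and 61.5 in Fab2L, a difference of 0.20 (adjusted p = 0.717). The gene spans 3R:26461527-26470008, and 4 members lie in its introns. In all, 12 White*-specific SNPs of any class name CG5455, of which 1 is nonsynonymous and 3 are synonymous.

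The other called hosts moved by less than 0.5 log2 units. Lerp, the lysosomal enzyme receptor gene with 16 intronic members, was at 17.3 and 16.5 FPKM in White* and 23.5 and 22.6 in Fab2L (log2 difference -0.42, adjusted p = 0.00504). CG6051, with 5, was at 22.3 and 21.8 against 28.8 and 28.9 (-0.37, adjusted p = 0.00488). without children (woc), a zinc-finger gene, was at 36.2 and 35.0 against 45.4 and 45.0 (-0.34, adjusted p = 0.00713). l(3)mbt, whose protein represses germline genes in somatic cells, went the other way, at 7.93 and 7.83 against 5.97 and 5.44 (0.41, adjusted p = 0.01001). In these 4 genes the White* and Fab2L libraries did not overlap, although for Lerp the w[1118] libraries, at 16.0 and 14.8, lay below White*.

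The 5 further hosts that passed the threshold had small differences. T48 (0.24) and Nf1, the Ras-regulating neurofibromin gene (0.19), were higher in White*. The splicing factor gene Prp39 (-0.25), the tankyrase gene Tnks (-0.19) and the V-ATPase subunit gene Vha100-1 (-0.18) were lower. Their adjusted p-values ran from 0.0179 to 0.0399. For T48 the Fab2L libraries, at 11.3 and 11.3 FPKM, were below all of White* (13.7 and 13.3), Red* (12.9 and 13.9) and w[1118] (13.8 and 13.2). All of the 10 except Lerp and T48 hold 5 or fewer members. T48, with 25 members, is among the fullest hosts, whereas msi and htt, the fullest hosts tested in eggs, were not called. msi was at 1.82 and 1.79 FPKM in White* against 1.54 and 1.47 in Fab2L (0.16, adjusted p = 0.163), and htt at 2.24 and 2.09 against 2.42 and 2.46 (-0.12, adjusted p = 0.243). side, snu, CCAP-R and beat-VII were at or below 0.0634 FPKM in every egg library and were not tested.

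**Figure D4:**
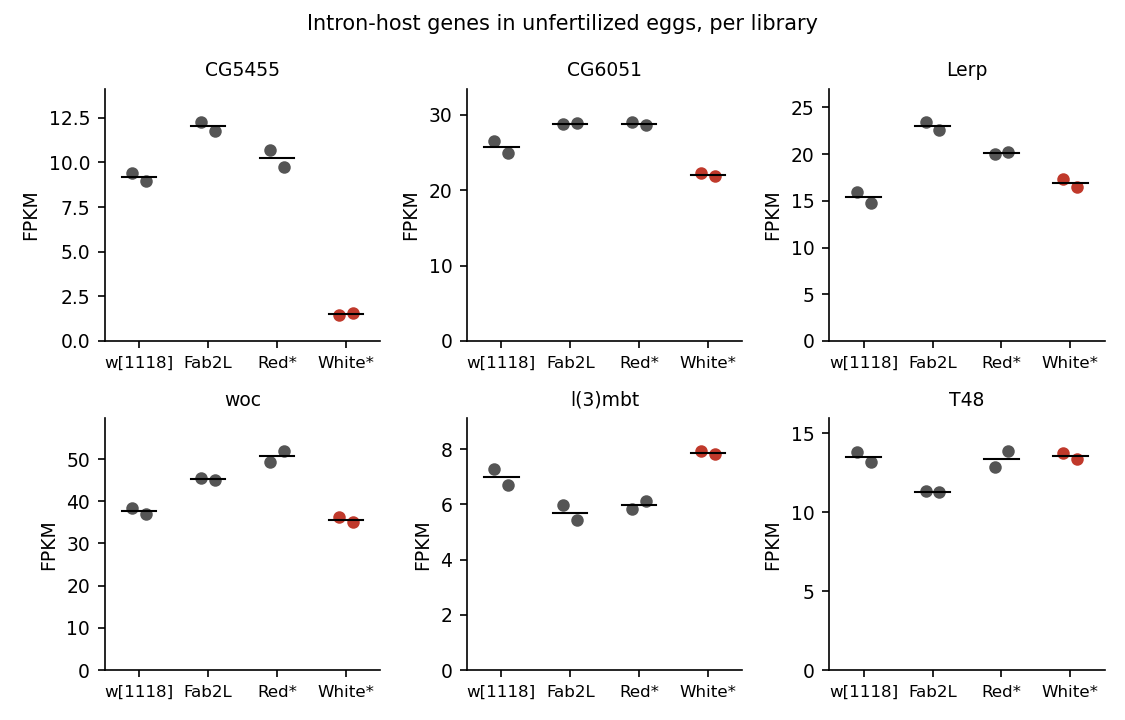
FPKM of 6 intron-host genes in unfertilized eggs, with 1 point per library, 2 libraries per line, and a bar at the mean. White* (red) is at 1.43 and 1.58 for CG5455 and below the other 3 lines for CG6051 and woc, and above them for l(3)mbt.

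Genes in the SNP segments that need not be hosts were counted in the same fit, a grouping added after the data were seen. In eggs, 49 of 149 tested genes in the segments were called (32.9%; 22 higher and 27 lower in White*). Of genes in the gaps between segments, 28 of 100 were called (28.0%; 7 higher and 21 lower). The difference between segments and gaps was not tested. On 3R outside the stretch the share was 14.7% of 1312, and on the other arms 14.8% of 4964. The median size of the difference was 0.17 in the segments and 0.16 in the gaps, against 0.11 outside the stretch on 3R and elsewhere. Genes in segments without an intron SNP were called at 34.8% of 112. The count in the segments fell when any White* or Fab2L library was left out. The count over all genes fell in each of these settings too, and both counts were lowest without the second White* library.

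In OR, 35 of the 42 SNPs of the fifth segment were homozygous. Of its 14 tested genes, 9 (64.3%) were called in eggs, 6 higher and 3 lower, against 15.4% of all 6682 genes. In the other segments with tested genes, in chromosome order, 24 of 83, 2 of 13, 11 of 34 and 3 of 5 were called. The last of these had 0, 1 and 5 of 73 SNPs homozygous in OR, OR+11 and CS. Whether the share of called genes goes with homozygous calls was not tested. The genes named from the fifth segment were chosen after their values were seen, and none of its 9 called genes is an intron host. CG7601 was at 15.9 and 16.8 FPKM in White* against 47.1 and 49.2 in Fab2L (log2 difference -1.50, adjusted p = 4.49e-06). Naa40, an N-terminal acetyltransferase gene, was at 22.2 and 23.7 against 56.7 and 61.4 (-1.32, adjusted p = 3.72e-05). CG18731, its neighbour, went the other way, at 31.1 and 36.1 against 11.96 and 10.77 (1.48, adjusted p = 3.72e-05). For CG7601 and Naa40 Red* and w[1118] stood near Fab2L, and for CG18731 w[1118] stood between, at 18.5 and 19.0.

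The spindle-checkpoint gene Bub3 was at 37.8 and 38.8 FPKM in White*, against 21.4 and 17.9 in Fab2L, 18.9 and 19.3 in Red* and 19.6 and 18.3 in w[1118] (log2 difference 0.93). The condensin subunit gene Cap-D2, the next annotated gene, was at 37.0 and 35.6 against 50.9 and 52.2, with Red* and w[1118] between 50.9 and 53.4 (-0.50). Both separate White* from all 6 other egg libraries. Pcd, a pterin dehydratase gene, was higher than in Fab2L (0.85) but not than in w[1118], at 100 and 99.2 FPKM against 103 and 89.7. The annotated spans of Pcd and Naa40, and of CG7601 and its neighbour Kul, overlap, and the counting was not stated to use strand, so reads of these genes may be split uncertainly. The nearest member lay 6.03 kb from Cap-D2, 10.9 kb from Bub3 and 24.8 kb from CG7601.

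**Figure D5:**
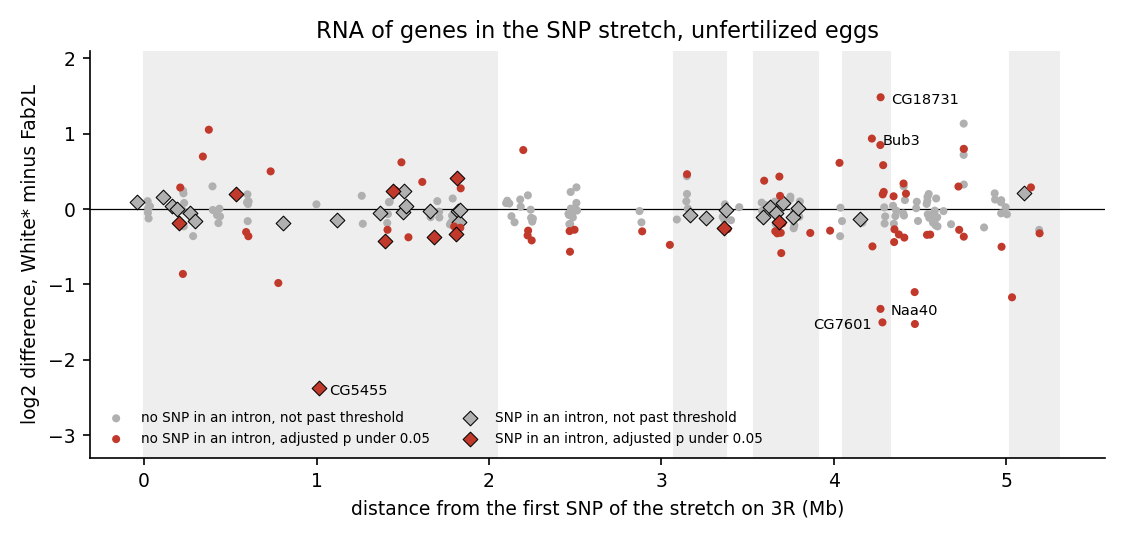
Log2 difference of White* minus Fab2L in eggs for the 249 tested genes of the stretch, by distance in Mb from its first SNP. Red marks the 77 genes with a limma adjusted p under 0.05, diamonds are intron hosts, and grey bands are the SNP segments.

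Sums of genes listed as markers of other tissues differed between these lines in eggs. The summed FPKM of 4 fat body markers was 0.0715 to 0.160 in White* and 1.64 to 2.28 in Fab2L, and of 4 midgut markers 0.107 to 0.153 and 1.06 to 1.21. The fat body sum rests on the yolk protein genes Yp1 and Yp2, which reached 1.51 and 5.69 FPKM over all egg libraries. Fbp1 and Lsp2 reached 0.157 and 0.0229. A sum carried by yolk protein genes is not taken here as a sign of fat body. The Jonah protease genes Jon99Fii, in the sixth segment, and Jon99Cii and Jon99Ciii, in the gap before it, were also lower in White* than in Fab2L. The differences were 1.17, 1.52 and 1.10 log2 units at levels of at most 2.27 FPKM in Fab2L. Red* eggs were low as well, from 0.0311 to 0.217 FPKM over the 3 genes, while w[1118] stood at 1.13 to 2.31. Mst57Dc, in the first segment, was higher in White*, at 1.71 and 1.04 against 0.175 and 0.0942 in Fab2L. The 5 head markers summed to 2.20 to 2.58 FPKM in White* eggs and 1.30 to 1.39 in Fab2L eggs. The part of other tissues in the egg counts was not tested, and in bulk RNA fewer cells of a type cannot be told apart from less RNA per cell.

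In male heads 0 of 73 host genes were called between White* and Fab2L by limma, with 2 at an unadjusted p under 0.05, against 0.117% of 11119 genes, 13 in all. The median difference over the hosts was -0.03. side, the fullest host, was at 7.71 and 7.06 FPKM in White* and 7.39 and 8.08 in Fab2L. msi was at 28.7 and 29.5 against 30.9 and 30.5, snu at 56.9 and 58.4 against 61.2 and 60.9, and beat-VII at 17.2 and 15.1 against 16.6 and 16.9. These genes, at levels from 7.06 to 61.2 FPKM, had log2 differences between -0.08 and -0.06.

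Of the 13 genes called in heads, 3 lie in the stretch, and none of the 3 is a host. CG33346, in the third segment and 2096 bp from the nearest member, was at 5.79 and 5.72 FPKM in White* and between 0.0239 and 0.125 in the other 6 head libraries (log2 difference from Fab2L 2.62, adjusted p = 0.00133). CG11882, in the fourth segment, was at 6.45 and 5.45 in White* and 2.36 and 2.28 in Fab2L (1.06, adjusted p = 0.0340), but w[1118] was at 6.63 and 6.30. CG7829, between segments, was at 77.0 and 58.4 against 13.4 and 15.1 (2.16, adjusted p = 0.00133), and w[1118] was higher still, at 115 and 117. Of these 3 genes, CG33346 alone separated White* from every other head library. With all libraries 2 of the 253 tested genes in the segments were called. Leaving out the first or the second White* library gave 0 of 250 and 0 of 252, and leaving out either Fab2L library gave 1 of 252.

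Against Red*, which shares the White* libraries with the comparisons above, 16 of 37 hosts were called in eggs, 5 higher and 11 lower in White*, against 44.2% of all genes. The share of hosts, 43.2%, was near this background. Marker sums moved between these lines as well: in Red* eggs the fat body markers summed to 6.25 to 7.27 FPKM, the head markers to 8.93 to 9.34 and the midgut markers to 0.319 to 0.492, all above the White* ranges given above, and their part in the counts was not tested. After CG5455, woc (-0.50) and CG6051 (-0.37), the called hosts with the smallest adjusted p were yem, the yemanuclein gene of histone H3.3 deposition (-0.33), and Tl, the Toll receptor gene of dorsoventral patterning (0.32). Tl was at 193 and 195 FPKM in White* and 163 and 147 in Red*, with Fab2L at 199 and 205. Then came the tetraspanin gene Tsp97E (0.38), l(3)mbt (0.35), mrt (-0.41), Lerp (-0.23) and Vha100-1 (-0.19).

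In heads 3 of 73 hosts were called against Red* (4.11%), against 3.87% of all genes. Midgut markers summed to 0.807 to 32.7 FPKM in Red* heads and 0.0667 to 0.385 in White* heads. Flight muscle markers summed to 3.65 to 11.6 and 2.09 to 2.42. Fat body markers went the other way, at 12.9 to 14.4 and 18.6 to 22.4. The part of these tissues in the head counts was not tested. CAH9, a carbonic anhydrase gene listed as caix, was at 10.1 and 7.83 FPKM in White* and 2.79 and 3.20 in Red* (log2 difference 1.31, adjusted p = 0.0106). Fab2L, at 8.01 and 7.11, and w[1118], at 8.27 and 6.91, were close to White*, so that Red* was the line that differed. CG5890 was lower in White* (-0.67, adjusted p = 0.0338), and CG6051 was higher (0.42, adjusted p = 0.0338), opposite in sign to its difference in eggs. With no filter on low values both missed the threshold (limma adjusted p = 0.0638 for CG5890 and 0.0515 for CG6051). CG6051 also missed it without any 1 of the 4 libraries, and CG5890 without any 1 except the second Red* library. The count of 3 was 0 without the first White* or the first Red* library, 1 without the second White* library and 5 without the second Red* library.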

How the data were processed

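The members, gene lists and tests were chosen with earlier results of these data known. The authors deposited SNPs specific to White* or Red* with genotype calls per background and a quality score on the caller's scale. Bowtie2, Picard and SAMtools are named in the submitters' processing notes, with build dm6; caller settings and filters are not given in the sources used here. Long RNA was deposited by the authors as FPKM per gene, with STAR 2.5 and DESeq2 named in the submitters' processing notes. Counting tool and strand setting are not given in the sources used here. Reads per SNP are unknown; FPKM is relative to each library's own total.

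Computed here with Python 3.11.15 (pandas 2.3.3, scipy 1.17.1) and R 4.3.3: locations were read from the list's own annotation, and gene spans and names came from RefSeq's Release 6 (dm6) table. Runs joined SNPs within 1000 bp. limma 3.58.1 (trend) was fitted to log2(FPKM + 1) of genes with FPKM over 1 in no fewer than 2 of a tissue's 8 libraries, with 1 fit for all 4 lines, called at an adjusted p under 0.05. The method was tested on simulated data. Named hosts are the 10 with the most intronic members and those called in a comparison, at most 10 each. Named SNPs are the 3 longest runs (a tie by position), both ends of the stretch and the first 10 with differing calls. Of 17558 gene identifiers, 17252 matched a symbol; CG46339 had no FPKM row. Replicate numbers did not pair the libraries (correlations of deviations -0.18 to 0.23 in heads and -0.20 to 0.36 in eggs). No replicate libraries held identical values. Alternatives changed bin size, run rules, quality, the comparison set, pseudocount, filter, normalization, host definition, the replicate block and the libraries used. Small RNA and the indel lists were not used. No flanking sequence is shown, since no genome sequence was used here.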

Additional observations from a re-analysis of the deposited data

Results flagged for a closer look

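Among the named hosts, 5 had every White* library above, or every one below, all Fab2L libraries in heads and the opposite in eggs. For none was the difference between the tissues tested, and hosts not named were not searched. All except msi were named after being called in eggs, against Fab2L or Red*. The share of all genes meeting this rule was not counted, so nothing is read from the number of hosts. The log2 difference of White* minus Fab2L was -0.076 in heads and 0.16 in eggs for msi, 0.20 and -2.38 for CG5455, and -0.16 and 0.23 for Tsp97E. It was 0.10 and -0.37 for CG6051 and 0.17 and -0.25 for Prp39. Of these, CG5455, CG6051 and Prp39 passed the limma threshold in eggs, and none of the 5 did in heads.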

How the results depend on the processing

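The number of members was 1318 by the rule, 1835 with any intron or intergenic entry, and without the lowest-scoring SNPs of the list (the alternative by quality) 1024. The least sequence in whole bins that holds 90% of them on 3R was 5 Mb in 1-Mb bins and 2.6 Mb in 100-kb bins. The share in runs of at least 5 was 42.1% with a joining gap of 1000 bp, 8.19% with 200 bp and 86.0% with 5000 bp, and 64.3% were in runs of at least 3, so that this share is set largely by the rule. The share heterozygous in all 3 backgrounds was 75.8%, and 78.6% without the lowest-scoring SNPs. The transition share of 52.8% missed the threshold against all other located SNPs and passed it against coding SNPs alone (Fisher's exact test, p = 5.31e-06).

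For RNA, leaving out 1 library at a time gave 1 to 6 called hosts for White* minus Fab2L in eggs (10 with all libraries), 8 to 12 for White* minus Red* in eggs (16), 0 to 5 for White* minus Red* in heads (3), 10 to 28 called genes in the segments in eggs (49) and 0 to 1 in heads (2). In heads, White* minus Red* gave 1 host with no filter and 1 with the replicate block, and the segments gave 1 gene with a pseudocount of 0.1, with no filter and with the replicate block. The host calls lost in heads against Red* with the block were CG5890 (adjusted p = 0.0539) and CG6051 (0.0566). Other counts of called hosts and segment genes moved by less than 1.5 times with the block, which gave 10 hosts in White* minus Fab2L eggs. Over all genes in eggs, White* minus Fab2L gave 1032 calls, 597 with no filter, and 65, 196, 219 and 491 without 1 library; in heads it gave 13, 5 with the block and 2 to 4 without 1 library. The causes were not tested. Of 23 named host results 9 were called under all alternatives, 14 were lost in at least 1 and 0 reversed; CG5455 in eggs was among the 9. Taking hosts from intergenic entries too changed no count, because those entries name no gene. Depth per SNP call is unknown, and 2 libraries per line limit the RNA comparisons.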
